A study of Mus musculus with 2 samples.

Results

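The genes described here encode the nuclear subunits of the mitochondrial respiratory chain (complexes I to IV) and of ATP synthase (complex V), with some of their assembly factors. They were taken as all probe sets that the platform annotation assigns to exactly 1 gene whose symbol follows the family names Nduf, Sdh, Uqcr, Cyc1, Cox4 to Cox8, and Atp5. This gave 91 of the 18193 genes on the arrays, measured by 180 probe sets: 44 genes of complex I, 4 of complex II, 9 of complex III, 17 of complex IV and 17 of complex V. Choosing by symbol brought in 8 complex I assembly factors (Ndufaf1 to Ndufaf8), the supercomplex factor Cox7a2l and the paralog Ndufa4l2, which are not regular subunits. Ndufa4 carries a complex I name and is counted there, although its protein was later assigned to complex IV.

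Expression was measured with 1-colour Affymetrix arrays, 1 for T cells that had met retinal pigment epithelium (RPE, a layer of pigmented cells behind the retina) and 1 for control T cells. Both samples carry the labels male, 6 weeks old and C57 BL/6 background. The control's title specifies CD4 T cells. Title and source of the other sample name exposed T cells, but its tissue field names primary cultured RPE. The length of the exposure, any stimulation of the T cells and any pooling of animals are not given. As each group is 1 array, differences cannot be set against replicate error, nothing was tested, and each value below stands for 1 array. In such bulk samples, a change in the number of cells of a type and a change in RNA per cell cannot be told apart.

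Complex I (NADH dehydrogenase) and complex II (succinate dehydrogenase) pass electrons to ubiquinone, complex III passes them on to cytochrome c, and complex IV (cytochrome c oxidase) hands them to oxygen. Complexes I, III and IV pump protons out of the mitochondrial matrix, and the return flow through ATP synthase drives the formation of ATP. Activated T cells depend on this machinery alongside glycolysis, and its subunits come from nuclear genes on many chromosomes together with a few genes of the mitochondrial genome. The 91 members lie on 19 chromosomes, with at most 9 on any of them.

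The transcripts of the respiratory chain were nearly level between RPE-exposed and control T cells, with 1 exception in ATP synthase. A signal was taken as detected at or above a floor, the median of its array (16 on the exposed and 15.9 on the control array), and 86 of the 91 genes reached it on at least 1 array, 85 of them on both. Over these 86 genes the median log2 difference (RPE-exposed minus control) was 0.021, against -0.0092 over all 11015 genes compared. Of the 86, 78 lay within 1.2-fold. At least 1.2-fold higher in exposed cells were 5 members, where the share over all genes compared was 14.2%. At least 1.2-fold lower were 3, where it was 16.7%. These shares are not matched for signal, and 72 members had a mean signal of 500 or more. The median's sign depended on the scaling: it was -0.021 after quantile normalization and -0.013 when each gene was centred on genes of like level. Positive differences were found for 49 of 86 members, against 48.3% of all genes compared, and for 37 of 86 in either of these scalings.

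The exception was Atp5md, which encodes the small membrane subunit of ATP synthase known as DAPIT or subunit k, a protein associated with pairing of the enzyme into dimers. Its signal was 900.7 in RPE-exposed T cells, against 319.7 in control T cells. That is 2.82-fold higher (log2 difference 1.49), whereas the central 95% of differences among genes of like mean signal (1 of 20 level bins) ran from -0.41 to 0.37. It was the only member past 2-fold in either direction, with 0.436% of all genes compared past 2-fold in the higher direction and 0.626% in the lower. Among the 10011 genes detected on both arrays, Atp5md ranked 3rd by log2 difference. A single probe set measures it, so no second probe set was at hand for comparison, and its signals fall on both sides of 500. Where a gene has several, probe sets of 1 gene differed by a pooled SD of 0.10 on the log2 scale at signals of 500 or more (559 genes) and of 0.18 at signals of 100 to 500 (1441 genes). Over the alternative settings its difference ran from 1.45 to 1.51.

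**Figure D1:**
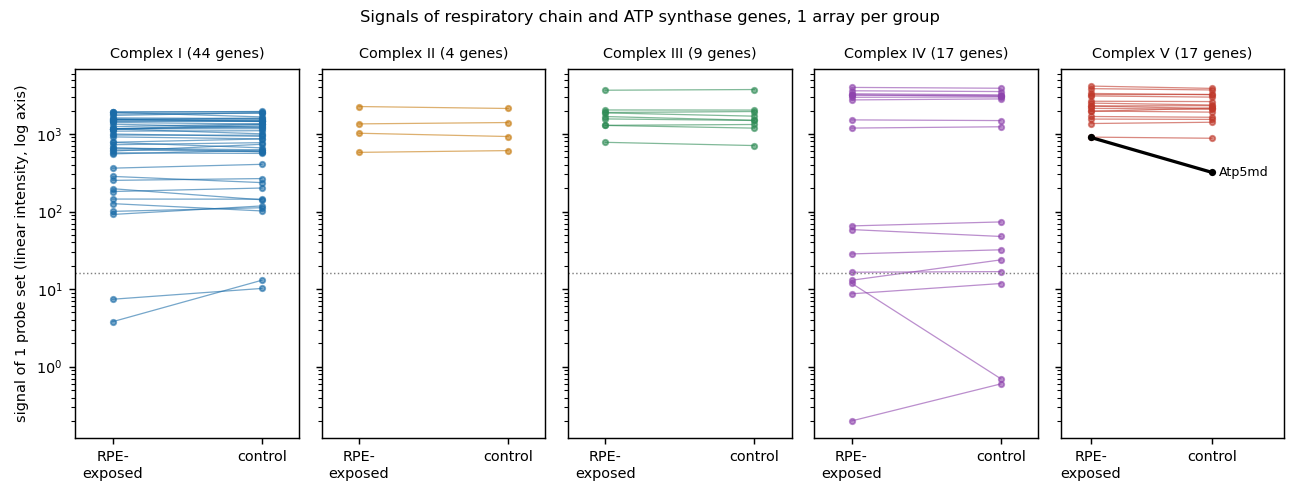
Signals (linear intensity, log axis) of the 91 member genes on the RPE-exposed and the control array, 1 panel per complex and 1 line per gene, each from its brightest probe set. The dotted line marks the floor of 16. Among genes detected on both arrays the line of Atp5md (black), at 900.7 in exposed and 319.7 in control cells, is the steepest, and lines under the floor, such as that of Cox8b (11.9 in exposed and 0.7 in control cells), can be steeper.

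Genes beside Atp5md on its chromosome did not show a difference of that size. In the RefSeq gene table, Taf5, a subunit of the general transcription factor TFIID, is the protein-coding neighbour on 1 side and gave 180 in exposed and 176.5 in control cells (0.028). On the other side lies Pdcd11, a ribosome biogenesis gene, with 273.2 in exposed and 315.6 in control cells (-0.21). Pcgf6, a Polycomb gene next to Taf5, gave 414.8 and 351.5 in exposed and control cells (0.24), and Calhm2, next to Pdcd11, gave 84.3 and 84.5 in exposed and control cells. These neighbours thus lay within 1.2-fold, on both sides of Atp5md.

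The promoters of 3 genes are printed. They belong to the gene with the large difference, Atp5md, and to a bright ATP synthase gene, Atp5g3. The other is Ndufs5, the subunit gene with the lowest difference among those detected on both arrays. Atp5g3, at 0.099, lay within 1.2-fold but had the highest difference of complex V after Atp5md. Each window holds 250 bases before and 50 after the start of the gene, from RefSeq on GRCm38.p6, on the gene's own strand. The Atp5md window is chr19:47090598-47090897 (minus strand), that of Atp5g3 is chr2:73911277-73911576 (minus strand), and that of Ndufs5 is chr4:123718137-123718436 (minus strand). Capitals mark matches, on either strand, to the motifs of 4 factors tied to respiratory genes: CGCANGCG for NRF1, CCGGAAG for ETS factors such as GABP, ATGGCGG for YY1, and TNAAGGTCA for the estrogen-related receptors (ERR).
Atp5md: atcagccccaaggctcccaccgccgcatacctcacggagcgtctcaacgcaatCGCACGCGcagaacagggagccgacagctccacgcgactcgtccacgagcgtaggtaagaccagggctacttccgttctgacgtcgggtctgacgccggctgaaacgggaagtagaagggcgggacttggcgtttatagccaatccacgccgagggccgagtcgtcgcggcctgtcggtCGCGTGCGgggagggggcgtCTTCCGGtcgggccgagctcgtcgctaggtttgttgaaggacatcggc
Atp5g3: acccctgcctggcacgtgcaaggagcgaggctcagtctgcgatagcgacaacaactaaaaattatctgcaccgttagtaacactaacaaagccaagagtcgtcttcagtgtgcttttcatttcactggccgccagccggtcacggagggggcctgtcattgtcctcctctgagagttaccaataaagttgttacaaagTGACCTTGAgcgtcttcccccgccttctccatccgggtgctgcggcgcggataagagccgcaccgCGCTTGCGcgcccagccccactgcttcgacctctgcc
Ndufs5: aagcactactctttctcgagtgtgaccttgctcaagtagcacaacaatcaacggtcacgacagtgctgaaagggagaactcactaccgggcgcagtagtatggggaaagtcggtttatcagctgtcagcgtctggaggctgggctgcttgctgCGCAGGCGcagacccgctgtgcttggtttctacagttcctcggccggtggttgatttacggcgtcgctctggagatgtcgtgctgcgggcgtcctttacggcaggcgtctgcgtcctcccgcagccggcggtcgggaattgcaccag
In Atp5md the capitals are a pair of NRF1 matches before the start and 1 ETS match just after it. In Atp5g3 they are an ERR match before the start and an NRF1 match after it, and in Ndufs5 an NRF1 match before it. Such matches were not particular to Atp5md. Cox6a1 (log2 difference 0.033) held NRF1 matches at -161 and -116 relative to the start and an ETS match at -16. Sdha (-0.058) held NRF1 matches at -97, -54 and -9.

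Promoter windows were in the table for 74 of the 91 members, and no match in them overlapped a match to another motif. Of the 74, 27 held the NRF1 motif (36.5%), against 19.9% of 8972 compared genes and 9.22% of all 27025 genes with a window. With 1 more base required at each end of that motif, 17 members held it, against 1076 of the compared genes. The ETS motif was found for 19 members (25.7%, against 21.1% and 9.93%), the YY1 motif for 11 (14.9%, against 9.79% and 4.69%), and the ERR motif for 3 (4.05%, against 0.869% and 1.43%). Some match was present for 45 of the 74, among them 12 of 15 in complex V, 23 of 39 in complex I and 3 of 12 in complex IV. The median GC content was 58.8% in the members' windows and 60.7% in those of compared genes. The median log2 difference was 0.031 over members with any match and 0.021 over those without. With and without each motif it was 0.046 and 0.0050 for NRF1, 0.015 and 0.030 for ETS, and 0.034 and 0.021 for YY1. For ERR it was 0.12 with the motif, over Atp5g3 and Sdhd only, as Ndufb4 was not compared, and 0.022 without. A match is a string of letters in these windows and is not evidence of binding.

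**Figure D2:**
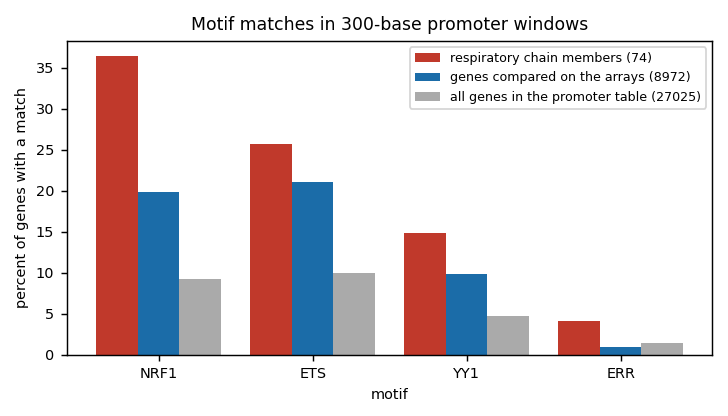
Percent of genes (vertical axis) whose promoter window of 300 bases holds each of 4 motifs (horizontal axis), for 74 members (red), 8972 compared genes (blue) and all 27025 genes in the table (grey). NRF1 matches stood at 36.5%, 19.9% and 9.22%.

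Complex I is the entry point for electrons from NADH, and its genes lay on both sides of zero. Of 44 genes, 42 were compared, 21 with a positive and 21 with a negative difference, and their median was 0.00037. The core subunits, those that carry out the catalysis, were read through 6 genes. Ndufv1, which binds NADH and the flavin, gave 966.2 in exposed and 963.0 in control cells (0.0048). Ndufv2, an iron-sulfur subunit beside it, gave 1553.9 and 1531.7 in exposed and control cells (0.021). Ndufs1, the largest iron-sulfur subunit, gave 623.7 in exposed and 589.7 in control cells (0.081).

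Further along the electron path, Ndufs8, another iron-sulfur subunit, gave 1919.8 in exposed and 1925.2 in control cells (-0.0041) from its brightest probe set. The 6 Ndufs8 probe sets ran from -0.063 to 0.58, and 1 of them gave 815.3 in exposed and 701.4 in control cells (0.22). Ndufs3, of the arm that reaches to the ubiquinone site, was at 1241.0 in exposed and 1348.8 in control cells (-0.12). Ndufs7, which holds the last iron-sulfur cluster before ubiquinone, had the highest difference of the core, with 775.8 in exposed and 661.5 in control cells (0.23). Its 2 probe sets above the floor agreed, at 0.24 ± 0.013 (mean ± SD over probe sets). None of the 6 core genes reached 1.2-fold by its brightest probe set.

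Among the accessory subunits of complex I, most also lay close to zero. The subunits of the membrane arm named Ndufb and Ndufc had a median of 0.00053 over 12 compared genes, and the other accessory subunits a median of 0.0095 over 16. Ndufb1 had the second highest difference of all members, with a signal of 196.7 in exposed and 141.5 in control cells (1.39-fold higher, 0.48), inside its like-level range of -0.53 to 0.54. Ndufs5 was the lowest subunit of complex I, at 601.1 in exposed and 734.7 in control cells (1.22-fold lower, -0.29). A probe set shared by Ndufs5 and its pseudogene gave 630.3 and 631.6 in exposed and control cells, so the difference seen with 1 probe set was not seen with the other. Ndufb6 gave 1165.2 and 1324.6 in exposed and control cells (-0.18), and its 2 probe sets were at -0.18 ± 0.0049. Ndufc2 gave 1905.9 and 1946.2, and Ndufa4 1532.5 and 1598.0, in exposed and control cells.

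The assembly factors of complex I varied more than its core subunits. Their 8 genes had a median of -0.11 and an SD across genes of 0.23, against 0.12 for the core subunits, but their signals were lower, where probe sets of 1 gene also differ more (pooled SD 0.18 at signals of 100 to 500). Ndufaf3 was at 126.3 in exposed and 101.7 in control cells (1.24-fold higher) and Ndufaf1, needed for early steps of assembly, at 283.3 and 235.8 in exposed and control cells (0.26 on the log2 scale). Ndufaf2, a late-acting factor, was at 91.6 in exposed and 118.0 in control cells (1.29-fold lower). Each lay inside its like-level range. The remaining 5 factors ran from -0.16 to 0.0050. The paralog Ndufa4l2, known as a hypoxia-induced gene, was under the floor on both arrays, as was the only probe set assigned to Ndufb4 alone.

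**Figure D3:**
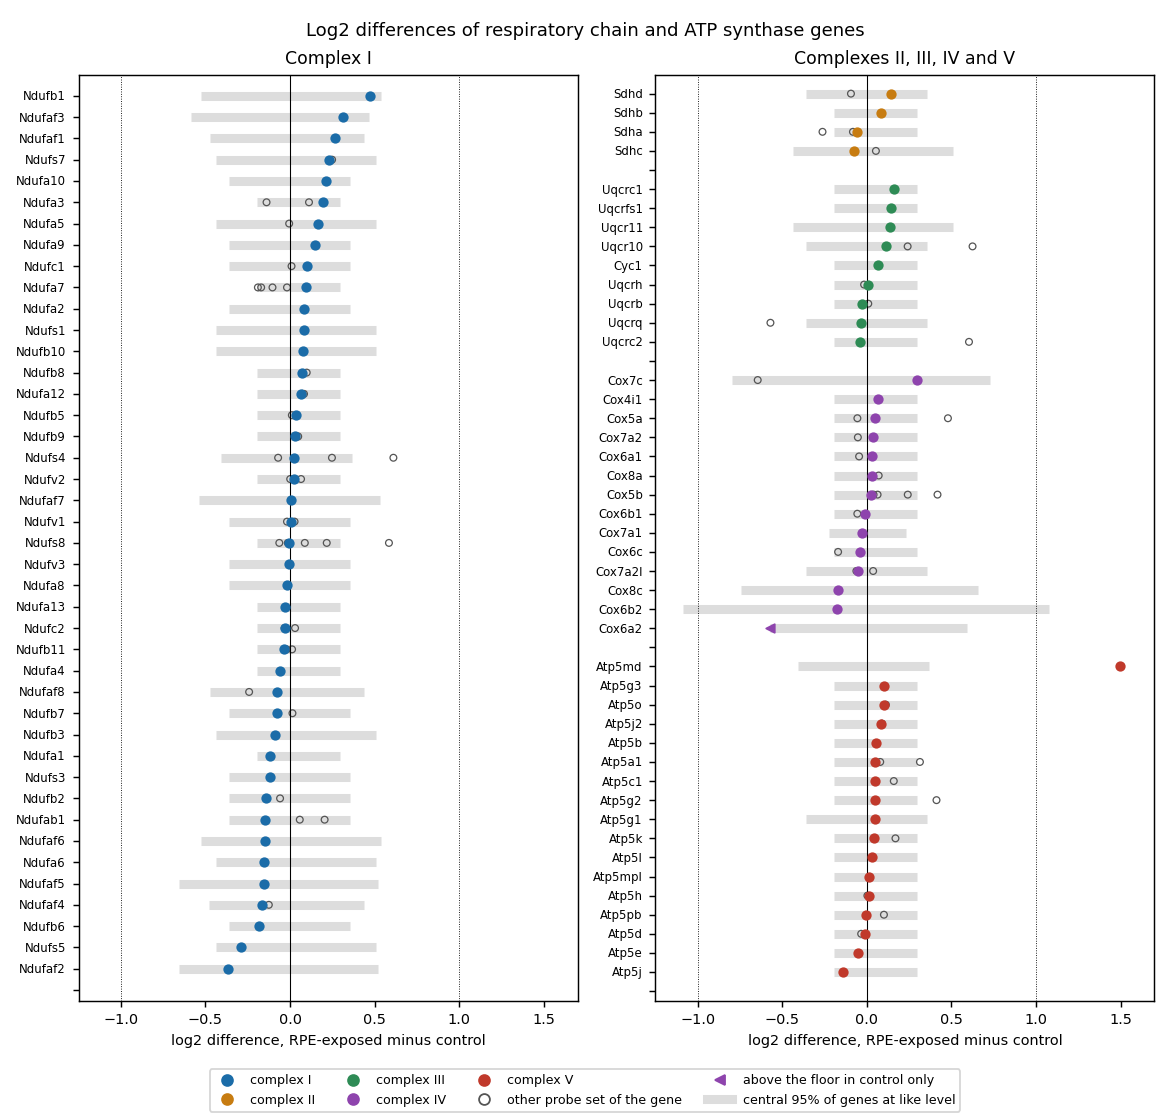
Log2 difference, RPE-exposed minus control, of the 86 compared members (filled points, coloured by complex), with their other probe sets detected on both arrays (open circles) and the central 95% of genes at like level (grey bars). Dotted lines mark 2-fold. Atp5md, at 1.49, was the 1 member outside its grey bar, and the triangle marks Cox6a2, detected in control cells only.

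Complex II, which also works as succinate dehydrogenase in the tricarboxylic acid cycle, was measured through all 4 of its subunits. The flavoprotein gene Sdha gave 1346.5 in exposed and 1401.7 in control cells (-0.058), and the iron-sulfur subunit gene Sdhb gave 2252.8 and 2126.7 in exposed and control cells (0.083). The membrane anchor genes were, in exposed and control cells, at 578.4 and 609.4 for Sdhc (-0.075) and at 1020.1 and 925.5 for Sdhd (0.14). The second probe set of each anchor gene had the opposite sign, 0.053 for Sdhc and -0.094 for Sdhd, so no direction can be given for either. All 4 genes lay within 1.2-fold.

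The 9 genes of complex III had a median of 0.066, with 6 positive and 3 negative differences and none past 1.2-fold. Of the catalytic subunits, the cytochrome c1 gene Cyc1 gave 1560.1 in exposed and 1490.2 in control cells (0.066). Uqcrfs1, the Rieske iron-sulfur protein gene, gave 1865.4 and 1693.0 in exposed and control cells (0.14). The core protein gene Uqcrc1 was at 1674.2 in exposed and 1497.1 in control cells (0.16). All 3 were higher in exposed cells by at most 1.12-fold. The small subunit genes Uqcrb and Uqcrh were almost level, with 3656.5 and 3730.4 in exposed and control cells for Uqcrb, and 2034.9 in exposed and 2028.4 in control cells for Uqcrh.

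Probe sets of some genes did not agree, with the widest gap, 0.94, for Cox7c of complex IV. In complex III, the brightest probe set of Uqcrc2, the partner of Uqcrc1, gave 1887.8 in exposed and 1943.3 in control cells, but its second gave 1166.0 and 767.3 in exposed and control cells (1.52-fold higher). For Uqcr10, a small subunit gene, 3 probe sets gave 0.12, 0.24 and 0.62. Uqcrq had -0.035 from its bright probe set and -0.57 from a dim one near the floor. In complex IV, also, 1 of 3 probe sets of Cox5a gave 2270.4 in exposed and 1628.7 in control cells (0.48), while the other two gave 0.048 and -0.056. In complex I, dim probe sets of Ndufs4 (0.61) and Ndufs8 (0.58) stood above brighter ones of the same gene. Of 47 members with several probe sets detected on both arrays, 21 had probe sets of both signs. Of all 159 member probe sets detected on both arrays, 13 were at least 1.2-fold higher (14.4% of all such 1-gene probe sets were) and 4 at least 1.2-fold lower (16.8% were). These shares are not matched for signal, as 118 of the 159 were at 500 or more on both arrays. At a mean signal of 500 or more, 11.4% of all genes lay at or past 1.2-fold in either direction, against 30.9% of all genes compared.

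Complex IV is where isoforms of 1 subunit are made in different tissues. Its 9 general subunit genes were detected on both arrays, and of its 7 tissue-restricted isoforms 3 were detected on both arrays, 1 on the control array and 3 on neither. Cox4i1 gave 3185.0 in exposed and 3046.4 in control cells (0.064), Cox6a1 gave 3595.0 and 3513.7, and Cox6b1 gave 2964.4 and 2990.3, again in exposed and control cells. Cox7a2 was at 3974.0 in exposed and 3877.0 in control cells, and Cox8a at 1516.0 in exposed and 1485.3 in control cells. The largest log2 difference among these 5 genes was that of Cox4i1.

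Most of the tissue-restricted isoforms gave low signals. Cox4i2, known from lung, gave 8.7 in exposed and 11.8 in control cells, and Cox8b, a heart and muscle form, gave 11.9 in exposed and 0.7 in control cells. Cox7b2, a testis form, gave 0.2 and 0.6 in exposed and control cells, so none of these 3 was detected. Cox6a2, another heart and muscle form, gave 13.0 in exposed cells, which is under the floor, and 23.8 in control cells. With this floor that is at least 1.49-fold lower, from 1 dim probe set. A second Cox6a2 probe set was under the floor on both arrays, at 2.5 in exposed and 2.3 in control cells. The log2 difference of Cox6a2 ran from -0.87 to -0.28 over the alternative settings. Cox7a1, also a muscle form, sat at the floor with 16.5 in exposed and 16.8 in control cells. The testis forms Cox6b2 and Cox8c gave 28.4 and 32.1, and 65.2 and 73.4, in exposed and control cells. A second Cox8c probe set gave 22.6 in exposed cells and was under the floor in control cells, at 3.3, in the opposite direction. All 5 muscle marker genes examined (Ckm, Myh6, Actc1, Tnnt2 and Myl2) were under the floor on both arrays.

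Of the other genes of complex IV, Cox5b, Cox6c and Cox7a2l were also close to level by their brightest probe sets. Cox5b gave 3163.2 in exposed and 3115.4 in control cells, but its 5 probe sets detected on both arrays ran from 0.022 to 0.42. The highest of these gave 2007 in exposed and 1502.7 in control cells. Cox6c gave 2742.5 and 2824.5, and the supercomplex factor gene Cox7a2l gave 1189.3 and 1235.9, likewise in exposed and control cells. Cox7c was measured by 2 dim probe sets that disagreed, at 58.5 and 47.7 in exposed and control cells for the brighter (0.29), and 20.2 in exposed and 31.6 in control cells for the other (-0.65). No direction can be given for Cox7c from this pair. The 14 compared genes of complex IV had a median of 0.0047, with 7 positive and 7 negative differences.

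Without Atp5md, ATP synthase was as level as the rest. Its other 16 genes had a median of 0.046, ran from -0.14 to 0.099, and all lay within 1.2-fold. In the F1 head, where ATP is made, the catalytic beta subunit gene Atp5b gave 3830.8 in exposed and 3685.1 in control cells (0.056). The alpha subunit gene Atp5a1 gave 3320.6 and 3206.3 (0.051), and the gamma subunit gene Atp5c1, for the central shaft, 3084.6 and 2980.1 (0.050), in exposed and control cells. Atp5d and Atp5e, for the delta and epsilon subunits, gave -0.012 and -0.055. These F1 genes lay within 1.04-fold of level.

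The c subunit forms the rotating ring in the membrane, and its 3 genes encode the same mature protein. Atp5g1 gave 909.1 in exposed and 879.0 in control cells (0.049), Atp5g2 gave 1974.0 and 1907.8 (0.049), and Atp5g3 gave 4134.4 and 3860.0 (0.099), each in exposed and control cells. All 3 were thus at most 1.07-fold higher in exposed cells. Of the other membrane and stalk subunits, Atp5j, coupling factor 6, had the lowest difference, with 1951.0 in exposed and 2153.3 in control cells (-0.14). Atp5k and Atp5l encode subunits e and g, which like DAPIT belong to the membrane part linked to dimers. They gave 2135.3 and 2072.9 in exposed and control cells for Atp5k (0.043), and 1676.5 in exposed and 1639.5 in control cells for Atp5l (0.032). Atp5mpl, another small membrane subunit gene, gave 1553.6 in exposed and 1537.6 in control cells. The large difference of Atp5md was thus not shared by the genes of these neighbouring subunits.

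Other genes with strong signals were set beside the members by their mean log2 signal over both arrays, so that a change in a gene did not remove it. A mean signal of 500 or more was found for 72 members, Atp5md among them, and for 1861 other genes. The median difference was 0.030 over the members and 0.027 over the other genes. The SD across genes was 0.20 over the 72 members and 0.096 without Atp5md, against 0.19 over the other genes, so this measure of spread turned on that 1 gene. The quartiles, which a single gene moves little, were -0.035 and 0.081 over the members and -0.069 and 0.12 over the other genes. Of the 72 members, Atp5md and Ndufs5 lay at or past 1.2-fold, against 11.4% of all 1933 genes at this level. Differences were positive for 44 of the 72 members (61.1%), close to the 58.9% of all 1933 genes. In the brightest of the 20 level bins, which holds 44 members but not Atp5md, the SD across genes was 0.066 over the members and 0.14 over the 507 other genes. No test of the spread was made.

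**Figure D4:**
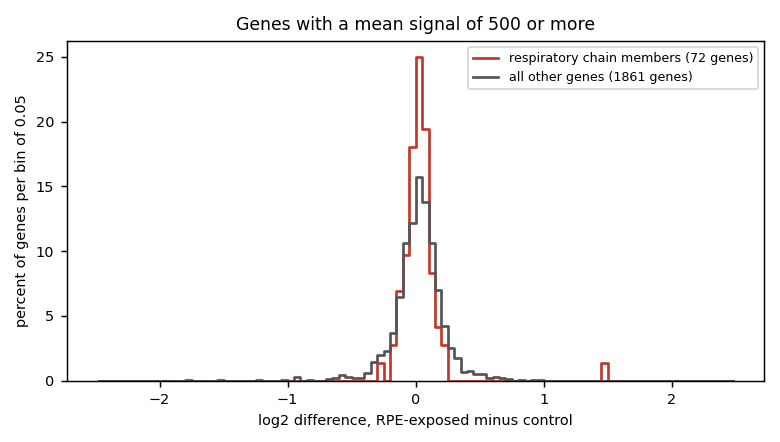
Distribution of log2 differences (RPE-exposed minus control, horizontal axis) among genes with a mean signal of 500 or more, as percent of genes per bin of 0.05, for 72 members (red) and 1861 other genes (grey). Both peak just above 0, and the lone member on the right is Atp5md, at 1.49.

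Other genes of oxidative metabolism, taken from lists, gave no 2-fold difference either. Assembly factors outside the symbol families had a median of 0.036 over 31 genes, with 7 at least 1.2-fold higher and 1 lower. Surf1, needed for complex IV assembly, was at 387.4 in exposed and 259.3 in control cells (1.49-fold higher). Uqcc3 was at 171.8 in exposed and 124.7 in control cells (0.46). The ATP synthase assembly factors Atpaf1 and Atpaf2 were at 141.4 and 105.6, and at 222.8 and 171.2, in exposed and control cells (0.42 and 0.38). Cox17, the brightest gene of this list, was at 1376.5 in exposed and 1560.1 in control cells (-0.18). Nubpl, which delivers iron-sulfur clusters to complex I, was at 125.7 in exposed and 165 in control cells (-0.39).

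Electron carriers and exchange proteins had a median of 0.053 over 20 genes, with 4 at least 1.2-fold higher and 3 lower. The cytochrome c gene Cycs gave 3648.6 in exposed and 3581.7 in control cells, and the ADP/ATP carrier gene Slc25a5 gave 5059.9 in exposed and 4606.9 in control cells. Regulators of mitochondrial gene expression had a median of 0.010 over 15 genes, with none at least 1.2-fold higher and 3 lower. Those 3 were Esrra, for the receptor ERR alpha (67.2 in exposed and 93.7 in control cells, -0.48), and the coactivator genes Ppargc1b (28.1 in exposed and 35.3 in control cells, -0.33) and Pprc1 (236.7 in exposed and 295.3 in control cells, -0.32). Nrf1 (0.23) and Tfam, the mitochondrial DNA-binding factor (0.010), had positive differences, and Ppargc1a was under the floor on both arrays.

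Enzymes of the tricarboxylic acid cycle had a median of -0.037 over 16 genes, with 1 at least 1.2-fold higher and 3 lower. The higher gene was Idh3b (0.30), and the lower ones were Idh2 (-0.37), Suclg1 (-0.30) and Ogdh (-0.28). Citrate synthase, Cs, at 933.3 in exposed and 1117.7 in control cells (-0.26), fell just short of 1.2-fold. Glycolytic genes had a median of 0.075 over 13 genes, all within 1.2-fold. Lactate dehydrogenase A, Ldha, gave 5730.5 in exposed and 5369.1 in control cells. These shares stand beside 14.2% higher and 16.7% lower over all genes compared. The 13 genes encoded in mitochondrial DNA were not analysed here.

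**Figure D5:**
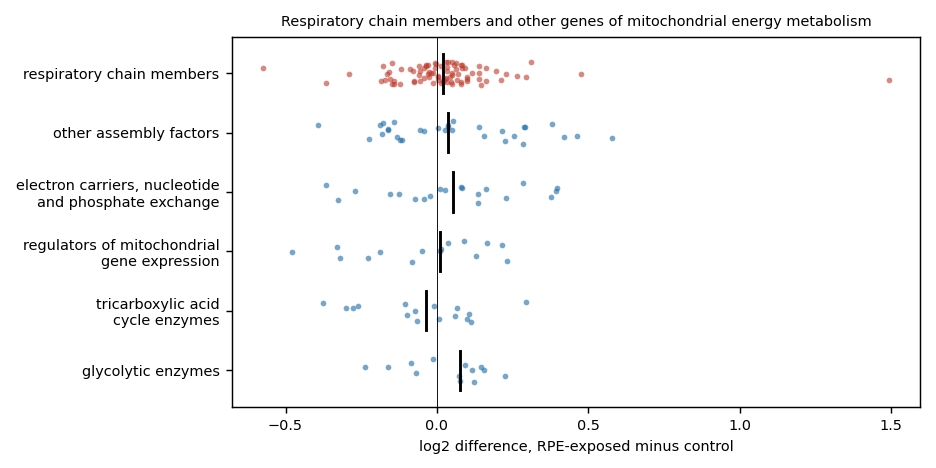
Log2 difference (RPE-exposed minus control, horizontal axis) of the 86 compared members (red) and of 5 lists of related genes (blue), 1 point per gene, with black bars at the medians. Medians ran from -0.037 to 0.075, and Atp5md is the lone point at 1.49.

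Marker genes were read for the cells the samples could hold. All 7 T-cell markers measured were above the floor, 4 of them lower in exposed cells, with a median log2 difference of -0.013, summed signals of 12526.4 in exposed and 11375.8 in control cells and Cd4 at 271.1 in exposed and 287 in control cells. B-cell markers were lower in exposed cells for 7 of 7 genes (summed signals 1297.6 and 2015.7 in exposed and control cells). Macrophage and dendritic-cell markers were lower for 8 of 10 (3224.8 and 4254 in exposed and control cells), while Csf1r and Adgre1 had positive differences. Most of the latter sum came from the MHC class II presentation genes H2-Aa, H2-Ab1, H2-Eb1 and Cd74. The other markers of that list were dim, such as Lyz2 at 19.5 in exposed and 29.4 in control cells. The part of B cells, macrophages and dendritic cells in the members' values was not tested. Of 12 RPE markers, Mitf and Pmel reached the floor, each on 1 array, and the visual-cycle gene Rpe65 (2.3 in exposed and 5.3 in control cells) did not. The summed RPE marker signal was 95.7 in exposed and 102.9 in control cells.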

How the data were processed

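Total RNA of both samples was labelled with biotin by in vitro transcription for Affymetrix arrays, per the labels' protocols. The authors deposited linear intensity values, 1 per probe set and array, already on a common scale: the mean without the lowest and highest 2% was 99.2 on the exposed and 99.3 on the control array. The summarization software is not given in the sources used here. Of 45101 probe sets, 34958 named exactly 1 gene in the platform annotation supplied and 932 named several, which were left out. All 91 members matched a RefSeq gene of GRCm38.p6 by identifier and symbol.

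In Python (3.11.15; pandas 2.3.3, numpy 2.4.6), the probe set with the top mean log2 signal over both arrays stood for a gene, and signals under the floor were set to it. Log2 differences are RPE-exposed minus control. Genes under the floor on both arrays were not compared, and a gene under it on 1 array has a lower bound only. The like-level range is the central 95% of differences among compared genes in the same of 20 bins of mean level. Genes with strong signals were chosen by their mean over both arrays, a rule set after the values were seen. Precision is limited by the number of arrays. The 2-fold call was tested on simulated data with raised, lowered and unchanged genes. Noise in that simulation followed the spread among probe sets of 1 gene, not the spread between replicate arrays. The 1.2-fold counts, like-level ranges and motif matches were not tested in this way.

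Members, gene lists and motifs were chosen with earlier results of these data known, and the NRF1 motif was shortened to its core after a longer form had been searched. Genes named were the 5 highest and 5 lowest members, the 2 brightest per complex, members past 2-fold, outside the like-level range or detected on 1 array, isoform families, complex II, the core of complex I, and genes whose probe sets differed by over 0.5. Other members named, such as Uqcrc1, Atp5j and the rest of complexes III, IV and V, were chosen for their role or after their values were seen. So were Atp5md's neighbours and some of the genes named from the related lists.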

Additional observations from a re-analysis of the deposited data

How the results depend on the processing

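The members' medians, overall and by complex, the counts of members past 2-fold, past 1.2-fold or with a positive difference, and the differences of the genes named by rule were recomputed with the floor at the 25th or 75th percentile, with the mean of all probe sets of a gene, without probe sets whose names end in x, s or a, with median centring, quantile normalization or level centring, with log2(signal + 16), and without members that are not subunits (medians and counts only). The related gene lists, markers, neighbours of Atp5md, spread at strong signals, probe-set counts and motif shares were not recomputed. Atp5md stayed past 2-fold in all settings, from 1.45 to 1.51. The members' median ran from -0.021 to 0.033. The medians of complexes I (-0.023 to 0.021), II (-0.026 to 0.083) and IV (-0.056 to 0.030) took both signs. Those of complexes III (0.028 to 0.14) and V (0.010 to 0.060) stayed positive. The count of members with a positive difference ran from 37 to 52. With the floor at the 25th percentile, 3 members were past 2-fold, since Cox8b (higher) and Ndufa4l2 (lower), with signals under 16, then entered. Without members that are not subunits, 5 rather than 8 were past 1.2-fold, as assembly factors then drop out. Of 41 named genes compared, 14 had the opposite sign in some setting, and 1 of these, Cox7c, was past 1.2-fold in the main one. No paired analysis was possible because each group has 1 array, and no array could be left out.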

Other observations

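Probe sets assigned to several genes lie outside the comparisons above, but some hold respiratory chain symbols. A probe set for Ndufs6 and Ndufs6b gave 900.5 in RPE-exposed and 898.4 in control cells (log2 difference 0.0034). A pair of probe sets for Ndufb4 and its copies gave 831.6 and 689.2 in exposed cells, against 919.4 and 796.4 in control cells (-0.14 and -0.21). The brighter probe set for Ndufa11 and Ndufa11b gave 810.6 in exposed and 842 in control cells (-0.055). A probe set for Ndufb2 and Adck2 was at 34 in exposed cells and under the floor in control cells, at 11.8, while the brightest probe set of Ndufb2 alone gave 780.9 and 861.4 in exposed and control cells (-0.14).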
